A study of Mus musculus with 26 samples.

Results

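The 33 genes described here encode proteins of the excitatory synapse, most of them on its receiving side, and were chosen by symbol for that role. They were followed in mouse frontal cortex, where the count tables held 55487 genes and 18050 passed a filter on low counts, all 33 members among them. The list held 7 genes of AMPA receptors and their auxiliary subunits, 4 of NMDA receptors, 4 of metabotropic glutamate receptors, 12 of scaffolds, 3 of calcium/calmodulin signalling, 2 neuroligins and the vesicular glutamate transporter Slc17a7.

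RNA was sequenced from frontal cortex of 7 mice heterozygous for an Adnp frameshift (HET) and 7 wild-type littermates (WT), described as adolescent. Adnp encodes a zinc-finger protein of chromatin complexes. The sources used here give no strain or sex and name no treatment for either genotype. Open chromatin was given as 1 ATAC-seq peak list per genotype, which marks where a transposase could enter the DNA. The RNA of HET libraries 1 to 4 is labelled total RNA and that of the other 10 libraries polyA RNA, although a single protocol with poly-T beads is given for all 14.

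At an excitatory synapse glutamate released by one neuron opens AMPA receptors, which carry most of the fast current, and NMDA receptors, which pass calcium when the cell is already depolarised. Metabotropic receptors act more slowly through G proteins. Scaffold proteins of the Dlg, Dlgap, Shank and Homer families hold receptors in the postsynaptic density, and the kinase CaMKII, an enzyme built of alpha and beta subunits, turns calcium entry into lasting changes of synaptic strength. In cortex most of these proteins are made by glutamatergic pyramidal neurons.

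None of the 33 genes passed the test between genotypes, but most had a lower mean in HET. Of the 33, 28 had a log2 fold change (HET minus WT) below 0, against 46.71% of all 18050 genes tested. The median log2 fold change of the members was -0.32, against 0.02 over all genes, and single members ran from -1.24 for Nrgn to 0.70 for Grin2d. By edgeR (quasi-likelihood, two-sided) 0 of 33 reached an adjusted p under 0.05, where 0.97% of all genes did, and the smallest adjusted p among them was 0.0905 for Grm3. At an unadjusted p under 0.05 there were 19 members, as were 22.2% of all genes. Of these, 18 were lower in HET (10.4% of all genes) and 1 was higher (11.8% of all genes). DESeq2 called 5 members (8.33% of all genes), namely Grin2a, Grin2d, Grm2, Grm3 and Cacng3. Limma-voom with sample weights called 9 (10.4%), namely Gria3, Grin2d, Grm3, Dlg3, Dlg4, Camk2a, Cacng3, Cacng8 and Nrgn. In both Grin2d was higher in HET and the others lower. For no member were all HET libraries on one side of all WT libraries, a separation seen in 0.715% of all genes.

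Library totals ran from 32814841 to 48291175 counts, and raw counts per member and library from 164 (Homer3) to 173629 (Camk2a), so counting error was small beside the spread between mice. The common biological coefficient of variation was 0.248. Adnp itself stood between 5.34 and 8.68 CPM in HET and between 5.67 and 7.84 CPM in WT, and a frameshift need not change the level of an mRNA. CPM here are counts scaled to library size after TMM normalisation. The excitatory neuron markers differed widely between libraries, with a sum over 10 genes of 283 to 1131 CPM in HET and 538.2 to 1525 CPM in WT. All 10 were above 0 in every library, but Emx1 and Fezf2 were each under 1 CPM in at least 1 library. By the mean log2 CPM of these markers, HET 4 (2.55), HET 1 (3.96) and WT 4 (4.65) were the lowest, and the others stood between 5.28 and 6.58. HET 4 had the highest sum of 8 thalamic markers, 1598 CPM, where the WT libraries had 86.85 to 563.1. No marker list had a called gene in edgeR. At an unadjusted p under 0.05, where 22.2% of all genes stood, were 5 of 10 excitatory markers, with a median log2 fold change of -0.88. So were 4 of 8 thalamic markers (1.12), 3 of 6 markers of all neurons (-0.21), 4 of 4 blood markers (-0.64) and 3 of 7 microglia markers (-0.22). In each of the other 7 lists 0 or 1 gene stood there. Striatal markers, with 0 of 8 there, still differed widely, with sums of 170.1 to 2364 CPM in HET and 182.9 to 1761 CPM in WT. Their mean log2 CPM was highest in HET 5 (7.82), HET 3 (7.50) and WT 4 (7.43), and between 3.67 and 6.39 in the others. The part of the thalamic, striatal, blood and microglia differences in the results below was not tested singly. Values without HET 4 and HET 1 are given beside the members below. WT 4, the next lowest in excitatory markers, stayed in that fit, so low libraries were left out of HET alone.

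Levels of different genes were compared as CPM per kb of exon, since long transcripts collect more reads. In WT the highest by far was Nrgn, the small calmodulin-binding protein neurogranin, at 1079 ± 403 CPM per kb (SD, n = 7). It was followed by the CaMKII alpha gene Camk2a at 426 ± 116 CPM per kb and by Slc17a7, whose protein VGLUT fills presynaptic vesicles with glutamate, at 248 ± 89.4 CPM per kb. Next came a pair whose spreads overlap, the scaffold gene Dlgap3 at 105 ± 18.9 and the CaMKII beta gene Camk2b at 95.7 ± 5.10 CPM per kb. The highest receptor gene was the AMPA subunit Gria1 at 70.9 ± 7.71 CPM per kb, whose spread overlapped those of the scaffold genes Shank1 at 66.6 ± 19.6 and Dlg4 at 58.9 ± 8.78. All others lay between 1.98 and 43.1 CPM per kb. At the low end stood the neuroligin gene Nlgn3 (4.06 ± 0.504), the NMDA subunit Grin2d (3.59 ± 1.01) and Homer3 (1.98 ± 0.584 CPM per kb), of which Nlgn3 and Grin2d overlapped in spread.

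**Figure D1:**
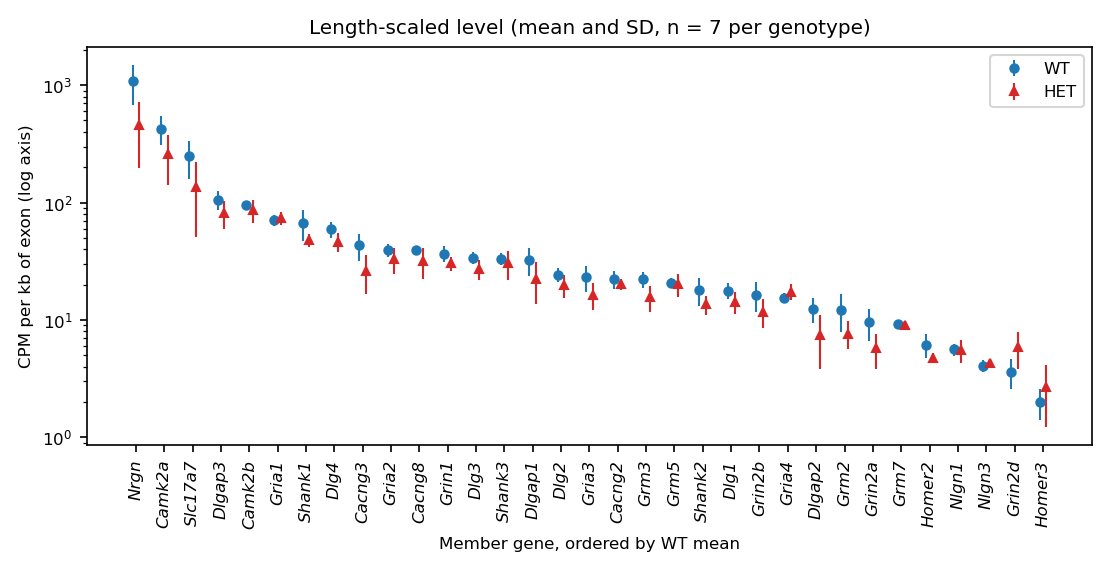
Level of each of the 33 genes in CPM per kb of exon (log axis), ordered by the WT mean; circles are WT means, triangles HET means and bars the SD over 7 libraries. Nrgn, Camk2a and Slc17a7 lead at 1079, 426 and 248 CPM per kb in WT, and Homer3 is lowest at 1.98.

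The peak lists showed where the gene starts of the members were accessible. A peak lay within 1000 bases of the gene start in both lists for 18 of 33 members (54.5%, against 55.6% of all genes), in the HET list alone for 8 (24.2%, against 8.08%), in the WT list alone for 1 (against 1.62%) and in neither for 6 (18.2%, against 34.7%). The HET list was longer, with 30862 peaks over 14.62 Mb against 19272 over 10.41 Mb in WT, and neither list carries a height or q value or has a replicate, so these counts compare the 2 lists and not the genotypes. With the HET list reduced to its widest peaks in equal number, 5 members had a HET peak alone (against 4.68% of all genes). The 8 members with a HET peak alone were Gria1, Gria3, Grm5, Dlg1, Dlgap2, Dlgap3, Homer2 and Cacng8. Their HET peaks included 1 of 368 bases at Gria1 (chr11:57011464-57011831) and 1 of 165 bases at Cacng8 (chr7:3390162-3390326, mm10). Homer3 had a peak in the WT list alone. Grin2d, Grm2, Dlg4, Shank2, Nlgn3 and Slc17a7 had none in either, although Dlg4 and Slc17a7 were among the most abundant members in RNA.

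RefSeq upstream sequences (GRCm38.p6) were at hand for 23 members, with 35 windows of 250 bases before a transcript start. Bases that the annotation counts as exon were taken out, which left 30 windows with bases, some of them shorter, and 5 with none. To show what the different peak states look like in sequence, 6 of them follow, each 5′ to 3′ on the gene's strand. Capitals mark a match on either strand to the letters GGGCGG (GC box), CATCTG (E box), TGACGTCA (cAMP response element) or GCGTGGGCG (EGR motif), of which neighbouring GC boxes can overlap. The first, at Gria2 (chr3:80802836-80803085, minus strand), lay wholly inside a peak of both lists and holds none of these letters:
Gria2: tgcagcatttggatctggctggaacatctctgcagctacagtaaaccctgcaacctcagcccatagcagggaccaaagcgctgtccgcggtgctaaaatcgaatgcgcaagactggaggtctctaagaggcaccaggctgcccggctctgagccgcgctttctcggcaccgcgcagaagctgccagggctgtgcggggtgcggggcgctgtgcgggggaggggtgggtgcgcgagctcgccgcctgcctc
The windows of Grm3 (chr5:9725353-9725602, minus strand) and Nrgn (chr9:37552905-37552995, minus strand) lay wholly inside the HET peak and outside the WT peak nearby:
Grm3: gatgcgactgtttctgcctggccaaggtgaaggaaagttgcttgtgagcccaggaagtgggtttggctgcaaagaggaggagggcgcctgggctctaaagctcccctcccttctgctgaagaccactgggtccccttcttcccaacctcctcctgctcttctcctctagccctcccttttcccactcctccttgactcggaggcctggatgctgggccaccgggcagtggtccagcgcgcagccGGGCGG
Nrgn: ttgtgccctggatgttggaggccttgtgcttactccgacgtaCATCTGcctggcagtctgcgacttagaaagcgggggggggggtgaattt
The window of Dlg1 (chr16:31663685-31663908, plus strand) lay inside a peak of the HET list alone:
Dlg1: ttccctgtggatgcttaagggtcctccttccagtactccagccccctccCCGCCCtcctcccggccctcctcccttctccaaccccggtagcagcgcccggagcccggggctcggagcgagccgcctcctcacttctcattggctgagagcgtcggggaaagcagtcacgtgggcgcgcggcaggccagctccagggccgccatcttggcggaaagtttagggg
The windows of Grm2 (chr9:106656110-106656359, minus strand) and Slc17a7 (chr7:45163671-45163920, plus strand) touched no peak of either list, yet hold the GC box letters more than once:
Grm2: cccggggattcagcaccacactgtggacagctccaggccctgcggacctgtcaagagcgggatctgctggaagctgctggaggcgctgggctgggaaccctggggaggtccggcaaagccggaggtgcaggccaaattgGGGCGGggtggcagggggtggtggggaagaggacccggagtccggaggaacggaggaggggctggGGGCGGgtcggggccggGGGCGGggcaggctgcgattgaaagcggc
Slc17a7: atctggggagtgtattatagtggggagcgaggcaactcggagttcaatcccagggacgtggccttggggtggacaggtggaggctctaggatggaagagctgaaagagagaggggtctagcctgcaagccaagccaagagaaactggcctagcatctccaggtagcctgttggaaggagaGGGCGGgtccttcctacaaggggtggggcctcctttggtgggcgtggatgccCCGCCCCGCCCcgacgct
In the 30 exon-free member windows the GC box letters stood in 11 (36.7%), against 27.3% of the RefSeq windows of all genes trimmed alike. The E box letters stood in 3 (10%, against 13%), and the EGR letters and the cAMP response element in 0 (against 0.414% and 1.22%). The median number of CpG was 7.5 per member window and 4 over all windows. With exon bases kept, the GC box letters stood in 14 of 35 member windows (40%, against 32.7% of 32851), the E box letters in 3 (8.57%, against 14.4%), the EGR letters in 1 (2.86%, against 0.536%) and the cAMP response element in 0 (against 1.55%), with a median of 9 CpG against 6. Windows of 1 gene can overlap, and a match is only a match of letters.

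**Figure D2:**
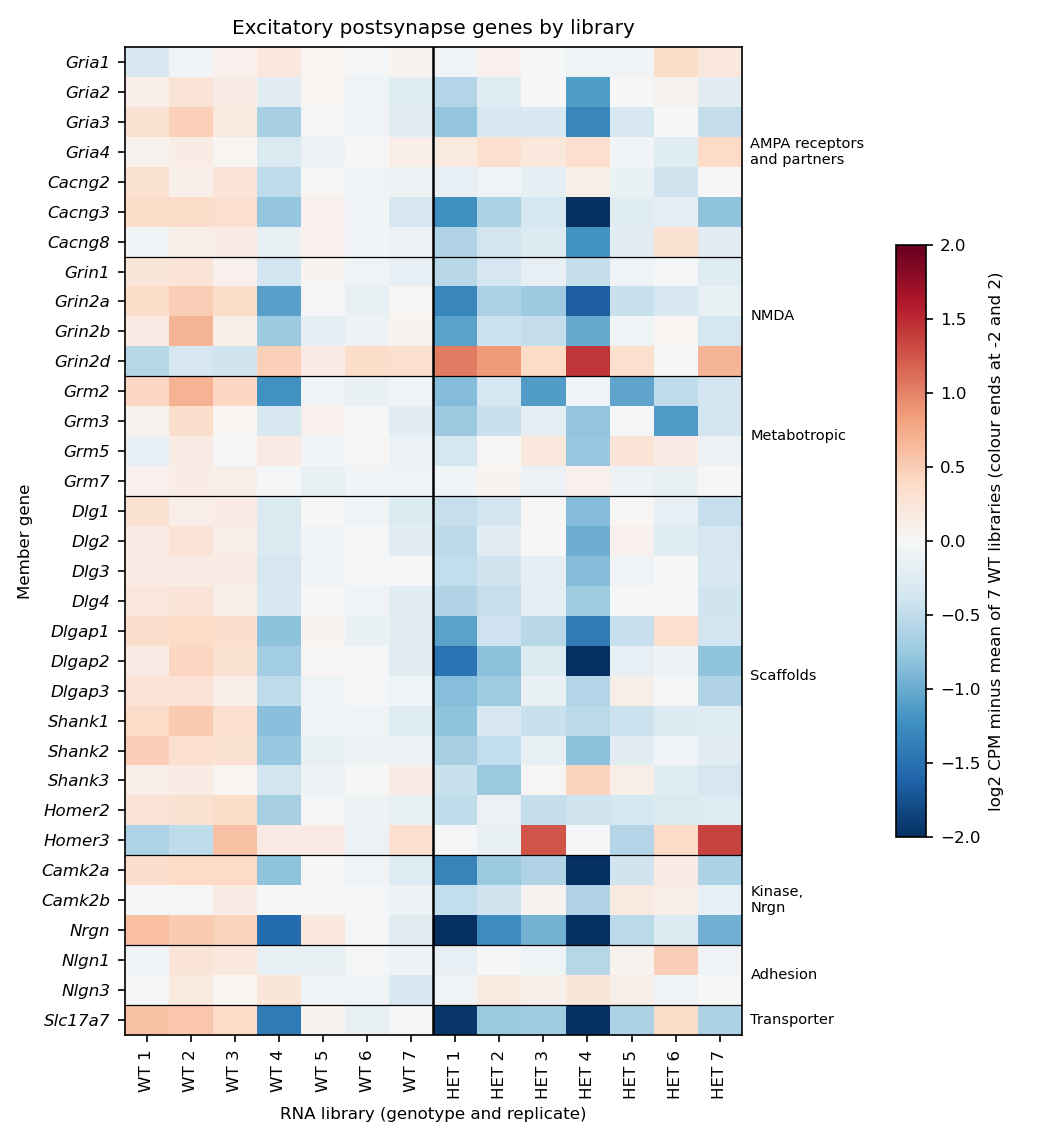
Each row is 1 of the 33 genes, grouped by role, and each column 1 RNA library; the colour is log2 CPM minus the mean of the 7 WT libraries, with colours ending at -2 and 2. HET 4 and HET 1 are the bluest columns, with median deviations of -0.76 and -0.58, HET 2 and WT 4 follow at -0.36 each, and Grin2d runs the other way.

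AMPA receptors are assembled from Gria subunits and trafficked by the transmembrane regulatory proteins encoded by Cacng2, Cacng3 and Cacng8. Of these 7 genes 2 had an unadjusted p under 0.05 (22.2% of all genes), both lower in HET. A log2 fold change below 0 was found for 5 (46.71% of all genes), and the median was -0.26. Cacng3 (ENSMUSG00000066189, chr7:122670492-122769393, plus strand) had the smallest p of the group. Its level ran from 29.04 through a median of 74.73 to 102.7 CPM in HET and from 67.86 through 122.3 to 149.7 CPM in WT. All 7 HET libraries were below the WT median and 3 below the lowest WT library. The means of 73.06 ± 26.9 and 119.8 ± 31.2 CPM (SD, n = 7 each) gave a log2 fold change of -0.71 (SE 0.26, 95% interval -1.26 to -0.17, adjusted p 0.131 in edgeR), and -0.47 without HET 4 and HET 1.

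The other gene of the group at unadjusted p under 0.05 was Gria3, at 161.8 ± 41.7 CPM (HET) against 228.2 ± 56.2 CPM (WT), with a log2 fold change of -0.50, or -0.32 without HET 4 and HET 1. Gria1, the AMPA subunit with the highest WT level per kb of exon but not in CPM, had HET libraries on both sides of the WT median. It ran from 401.5 through 414.8 to 551.9 CPM in HET and from 344.1 through 439.7 to 495.6 CPM in WT. Its log2 fold change was 0.06 with a 95% interval from -0.12 to 0.25. Gria2, whose edited subunit makes the channel nearly impermeable to calcium, ran from 281.1 through 526.6 to 639.1 CPM in HET and from 516.1 through 629 to 731.5 CPM in WT. Its log2 fold change was -0.26 (95% interval -0.59 to 0.07), or -0.08 without HET 4 and HET 1, and 6 of 7 HET libraries lay below the WT median. Gria4 had a mean 0.18 higher on the log2 scale, with 5 HET libraries above the highest WT library. Cacng8 had 6 HET libraries below the lowest WT library and 1, HET 6, above the highest, and its log2 fold change was -0.31, or -0.13 without HET 4 and HET 1. Cacng2 had a log2 fold change of -0.13.

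NMDA receptors need the Grin1 subunit together with glutamate-binding Grin2 subunits, whose choice sets how long the current lasts. All 4 genes had an unadjusted p under 0.05 (22.2% of all genes), with Grin1, Grin2a and Grin2b lower in HET and Grin2d higher. Grin2a ran from 51.94 through 104.5 to 148 CPM in HET and from 76.73 through 165.1 to 229.2 CPM in WT. All 7 HET libraries were below the WT median, and WT 4 was low among the WT libraries. The log2 fold change was -0.73 (SE 0.25, 95% interval -1.28 to -0.19, adjusted p 0.121 in edgeR). Grin2b, the subunit that dominates in early development, ran from 186.2 through 290 to 401.6 CPM in HET and from 235.9 through 409.5 to 625.7 CPM in WT, and the log2 fold change was -0.48 (95% interval -0.93 to -0.04). Grin1 ran from 238.7 through 295.6 to 346.4 CPM in HET and from 268.4 through 365.4 to 418 CPM in WT. Its smaller log2 fold change of -0.27 (95% interval -0.50 to -0.04, adjusted p 0.156 in edgeR) again had all 7 HET libraries below the WT median. Without HET 4 and HET 1 the log2 fold changes of Grin2a, Grin2b and Grin1 were -0.51, -0.30 and -0.18.

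Grin2d (ENSMUSG00000002771, chr7:45831883-45878378, minus strand), a subunit of interneurons and of subcortical regions, was the member with the highest mean difference upward. It ran from 22.99 through 37.05 to 62.48 CPM in HET and from 15.51 through 25.73 to 32.15 CPM in WT. HET 4 and HET 1 were the highest of all 14 libraries, 4 HET libraries lay above the highest WT library, and that highest WT library was WT 4. The means of 38.75 ± 13.3 and 23.93 ± 6.72 CPM gave a log2 fold change of 0.70 (SE 0.22, 95% interval 0.21 to 1.18, adjusted p 0.107 in edgeR), and 0.43 without HET 4 and HET 1. Grin2d passed at an adjusted p of 0.0485 in edgeR without HET 6, where 3.32% of all genes were called higher. On all 14 libraries it passed in DESeq2 (adjusted p 0.0285, 8.33% of all genes called) and limma-voom (adjusted p 0.0426, 10.4%).

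The metabotropic receptors of the list act through inhibitory G proteins (Grm2, Grm3 and Grm7) or through phospholipase C (Grm5). All 4 had a log2 fold change below 0 (46.71% of all genes), with a median of -0.27, and 2 had an unadjusted p under 0.05 (22.2%). The highest WT means per kb were those of Grm3 at 22.1 ± 3.32 and Grm5 at 20.8 ± 1.76 CPM per kb, with overlapping spreads. In HET Grm5 was the higher, at 20.2 ± 4.64 against 15.6 ± 4.00 CPM per kb. Grm3 (ENSMUSG00000003974, chr5:9485541-9725170, minus strand), which astrocytes make as well as neurons, had the smallest p of all members. It ran from 30.47 through 48.7 to 65.94 CPM in HET and from 53.56 through 68.56 to 85.02 CPM in WT. Here 5 HET libraries lay below the lowest WT library, and the lowest was HET 6, the HET library richest in excitatory markers. The means of 47.64 ± 12.2 and 67.31 ± 10.1 CPM gave a log2 fold change of -0.50 (SE 0.15, 95% interval -0.82 to -0.18, adjusted p 0.0905 in edgeR). Grm2, its close relative, averaged 37.39 ± 9.995 CPM (HET) against 59.84 ± 21.6 CPM (WT) (log2 fold change -0.68, 95% interval -1.21 to -0.15), with all 7 HET libraries below the WT median but none below WT 4. Grm5 and Grm7 had log2 fold changes of -0.04 each, and the interval of Grm7 ran from -0.17 to 0.09. With HET 4 and HET 1 left out, Grm3 stood at -0.40, Grm2 at -0.74, Grm5 at 0.12 and Grm7 at -0.06.

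The scaffold genes were the largest group, and 11 of 12 had a log2 fold change below 0 (46.71% of all genes), with a median of -0.36. An unadjusted p under 0.05 was reached by 9, all lower in HET, as were 10.4% of all genes. Shank1 (ENSMUSG00000038738, chr7:44310253-44360572, plus strand), whose protein links the Dlg and Homer layers of the postsynaptic density, had the smallest p. It ran from 384.7 through 500.4 to 568.7 CPM in HET and from 374.7 through 647 to 964.6 CPM in WT. All 7 HET libraries were below the WT median, and no HET library lay below WT 4. The means of 499.4 ± 62.5 and 700.1 ± 206 CPM gave a log2 fold change of -0.49 (SE 0.17, 95% interval -0.85 to -0.12, adjusted p 0.123 in edgeR). Dlgap3, the most abundant scaffold per kb and one known from striatal synapses, ran from 261.3 through 313.4 to 508.6 CPM in HET and from 330.7 through 458.8 to 575.3 CPM in WT. Its log2 fold change was -0.38 (95% interval -0.72 to -0.04), with 4 HET libraries below the lowest WT library. On the log2 scale Shank1 stood at -0.40 and Dlgap3 at -0.26 without HET 4 and HET 1.

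The 4 Dlg genes, which encode the membrane-associated guanylate kinases that bind receptor tails, had log2 fold changes between -0.34 (Dlg4) and -0.29 (Dlg2). Dlg4, the main scaffold of the mature synapse, averaged 616 ± 113 CPM (HET) against 780.9 ± 116 CPM (WT), with all 7 HET libraries below the WT median. Dlgap2 had the lowest fold change of the scaffolds, -0.75 (95% interval -1.45 to -0.04), and reached only 9.95 CPM in HET 4 against 45.72 to 100.3 CPM in WT. Dlgap1 stood at -0.53, Shank2 at -0.40 and Homer2 at -0.37 on the same scale. Shank3, the autism gene deleted in Phelan-McDermid syndrome, had a log2 fold change of -0.13 (95% interval -0.45 to 0.19) and was highest in HET 4, at 411.2 CPM. Homer3 was the exception above 0, at 0.43 (95% interval -0.22 to 1.08), where 2 HET libraries lay above the highest WT library. Without HET 4 and HET 1 the log2 fold changes of the 4 Dlg genes lay between -0.23 (Dlg4) and -0.15 (Dlg2), that of Dlgap2 was -0.44 and that of Dlgap1 -0.31, while Shank3 stood at -0.21 and Homer3 at 0.59.

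Nrgn and the CaMKII genes had a median log2 fold change of -0.73, and 2 of the 3 had an unadjusted p under 0.05 (22.2% of all genes). Nrgn (ENSMUSG00000053310, chr9:37544492-37552904, minus strand) binds calmodulin at low calcium and releases it when calcium rises. It ran from 86.87 through 738.1 to 1181 CPM in HET and from 492.1 through 1663 to 2164 CPM in WT. All 7 HET libraries were below the WT median, 2 lay below WT 4, and WT 4 lay far below the other WT libraries. The means of 663.5 ± 376 and 1568 ± 586 CPM gave a log2 fold change of -1.24 (SE 0.45, 95% interval -2.21 to -0.28, adjusted p 0.136 in edgeR), and -0.88 without HET 4 and HET 1.

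Camk2a ran from 670.5 through 1975 to 3424 CPM in HET and from 1748 through 3050 to 4051 CPM in WT, and the log2 fold change was -0.73 (SE 0.29, adjusted p 0.164 in edgeR), or -0.46 without HET 4 and HET 1. Camk2b, whose subunit anchors the enzyme to actin, ran from 575.8 through 779.4 to 991.3 CPM in HET and from 810.2 through 877.1 to 962.2 CPM in WT. Its log2 fold change was -0.15 (95% interval -0.40 to 0.09), and its HET libraries lay on both sides of the narrow WT range. It was -0.02 without HET 4 and HET 1.

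The neuroligins, postsynaptic adhesion proteins that bind neurexins across the cleft, had a median log2 fold change of 0.02, and neither had an unadjusted p under 0.05. Nlgn1 ran from 50.06 through 70.79 to 104.5 CPM in HET and from 67.27 through 72.04 to 89.35 CPM in WT, and the log2 fold change was -0.03 (95% interval -0.30 to 0.24). Nlgn3 ran from 35.65 through 40.19 to 44.22 CPM in HET and from 30.38 through 36.51 to 44.18 CPM in WT, and the log2 fold change was 0.07 (95% interval -0.10 to 0.24). For Nlgn1 the whole WT range lay within the HET range. Nlgn1 stood at 0.09 and Nlgn3 at 0.06 without HET 4 and HET 1.

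Slc17a7 (ENSMUSG00000070570, chr7:45163949-45176142, plus strand), whose protein is presynaptic, marks cortical glutamatergic neurons. It ran from 138.1 through 756.7 to 1589 CPM in HET and from 461.8 through 1300 to 1844 CPM in WT. HET 6, at 1589 CPM, was the single HET library above the WT median, and HET 4 and HET 1 lay below the lowest WT library. The log2 fold change was -0.86 (SE 0.42, 95% interval -1.77 to 0.04, adjusted p 0.244 in edgeR), and -0.51 without HET 4 and HET 1.

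The members differed between libraries of 1 genotype as well as between genotypes. WT 4 was the lowest WT library for 24 of 33 members and HET 4 the lowest HET library for 19. The median deviation of the members from the WT mean was -0.76 in HET 4, -0.58 in HET 1 and -0.36 in HET 2 on the log2 scale, and between -0.25 and -0.04 in the other HET libraries. In WT it was -0.36 in WT 4 and between -0.12 and 0.26 in the others. HET 4, HET 1 and HET 2 carry the total RNA label, as does HET 3 (-0.18), and no WT library does. For these libraries label and genotype cannot be told apart. In bulk tissue fewer cells of a type and less RNA per cell cannot be told apart. HET 4 was also the library highest in thalamic markers (mean log2 CPM 7.08), and WT 4 the WT library highest in striatal markers (7.43). The part of these in the member levels was not tested singly.

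By the mean of excitatory neuron markers, a list that shares no gene with the members, HET 4, HET 1 and WT 4 were the lowest libraries. HET 2, as low as WT 4 in the members, stood at 5.28. Not every marker followed that mean. Bcl11b was highest in HET 5, HET 3 and WT 4 (190.6, 164.2 and 148.6 CPM), and Rorb in HET 4 (39.38 CPM). A slope on the marker mean, with genotype in the same edgeR fit, was chosen after the data were seen. It was upward at an adjusted p under 0.05 for 21 of 33 members, against 10.9% of all genes, and downward for 1, Grin2d, against 9.18%. The steepest were Nrgn and Slc17a7, at 1.07 (SE 0.06) and 0.96 (SE 0.05) log2 units per log2 unit of marker mean, followed by Dlgap2 at 0.73 and Camk2a at 0.62. Grin2d had a slope of -0.39 (SE 0.07). Members without a called slope included Gria1 (0.03), Gria4 (-0.02), Cacng2 (0.02), Grm7 (-0.02), Grm2 (0.06), Grm3 (0.15), Shank3 (-0.08) and Nlgn3 (-0.05).

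**Figure D3:**
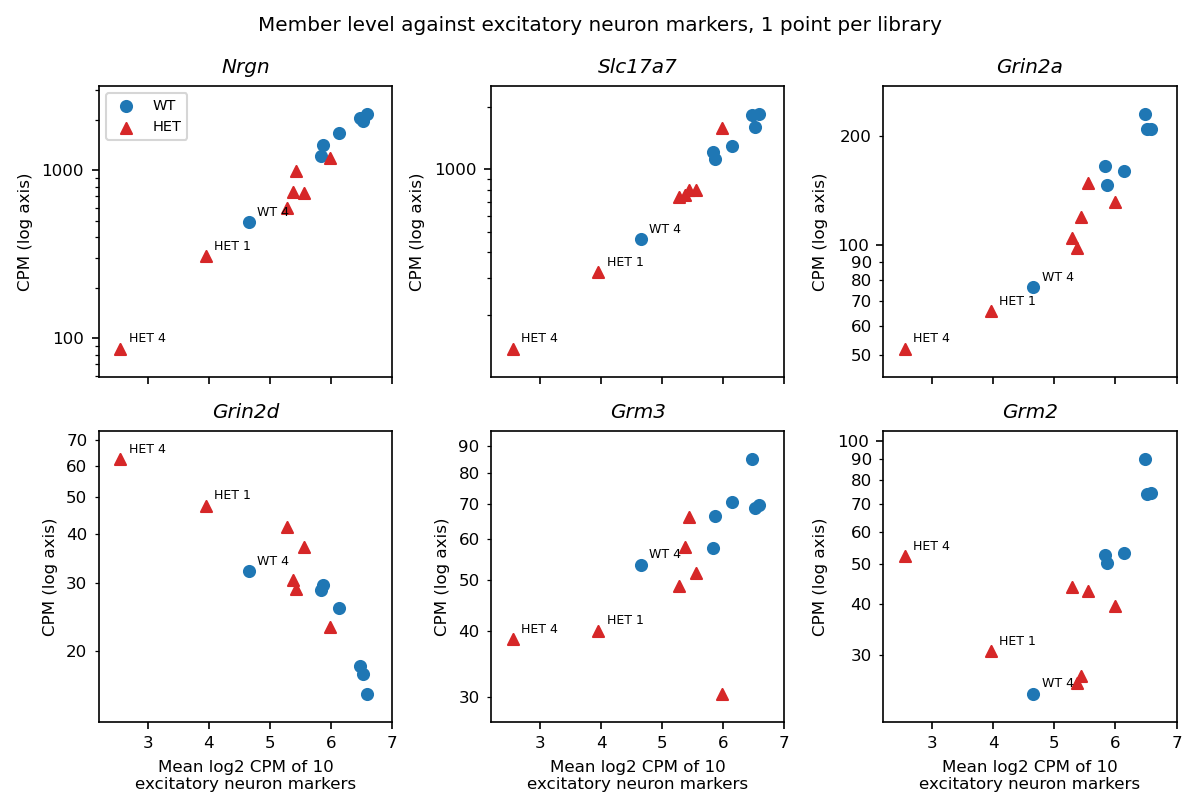
Level of 6 members in CPM (log axis) against the mean log2 CPM of 10 excitatory neuron markers, 1 point per library, circles WT and triangles HET. Nrgn, Slc17a7 and Grin2a climb with the markers and Grin2d descends, while Grm3 and Grm2 had no called slope and HET 6 is lowest for Grm3 at 30.47 CPM.

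With the excitatory marker mean as a covariate the genotype differences of the members were mostly smaller. The median log2 fold change went from -0.32 to -0.06, 23 of 33 values were below 0, and 1 member, Nrgn, had an unadjusted p under 0.05, where 12.8% of all genes did. The smallest adjusted p was 0.354 in edgeR, and 13 genes in all were called in that fit. Nrgn went from -1.24 to -0.24 (95% interval -0.45 to -0.02), Camk2a from -0.73 to -0.11, Grin2a from -0.73 to -0.17 and Slc17a7 from -0.86 to 0.03 (95% interval -0.18 to 0.24). Grm2 and Grm3 stood at -0.59 (95% interval -1.31 to 0.13) and -0.33 (95% interval -0.69 to 0.03). The marker mean itself ran from 2.55 to 5.99 in HET and from 4.65 to 6.58 in WT, so in this fit the genotype and the marker mean are partly the same contrast.

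**Figure D4:**
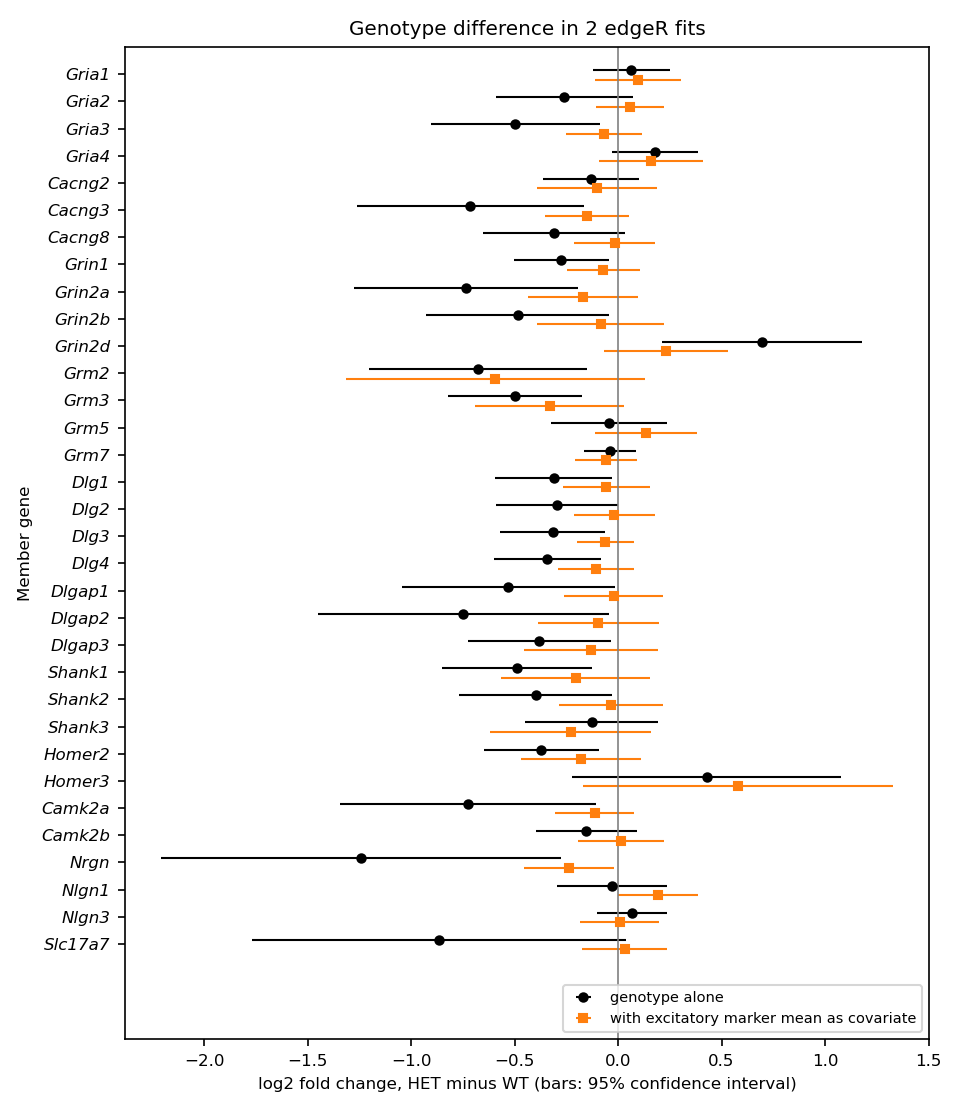
Log2 fold change (HET minus WT) of each of the 33 genes with its 95% confidence interval, from the edgeR fit with genotype alone (circles) and with the excitatory marker mean as a covariate (squares). The median is -0.32 in the first and -0.06 in the second, and Grm2 (-0.68 and -0.59) and Grm3 (-0.50 and -0.33) move less than Nrgn (-1.24 and -0.24).

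The calls depended on single libraries. Without WT 4 edgeR called 7 members, Grin1, Grin2a, Grm2, Grm3, Shank1, Shank2 and Homer2, all lower in HET, where 4.83% of all genes were called lower. Without HET 4, HET 1 and WT 4 together it called 6, all lower, namely Grin2a, Grm2, Shank1, Homer2, Cacng3 and Nrgn, where 2.35% of all genes were called lower. In that fit Nrgn stood at -1.04 on the log2 scale (adjusted p 0.0209) and Grm2 at -0.88 (adjusted p 0.0349). The members' median there was -0.26, and 20 of 33 had an unadjusted p under 0.05 in edgeR, as did 3915 of the 18050 genes. Without HET 4 and HET 1 alone, with WT 4 kept, edgeR called 0. The median was then -0.21, with 7 members at an unadjusted p under 0.05, where 15.3% of all genes stood. Among the 10 libraries labelled polyA RNA, 3 HET and 7 WT, the median was -0.17 and edgeR called 0. The share of all genes called is not given here for this fit or the one without HET 4 and HET 1. Their 0 therefore says nothing particular to the members. The part of the library differences in the genotype difference was not tested beyond these fits.

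Ratios of subunit levels within a library were compared for 3 pairs, as log2 of CPM per kb. Such a ratio shows unequal change of its genes and not which of them moved. Its size, but not its difference between genotypes, depends on the annotated exon lengths, such as 6043 bases for Gria1 and 15548 for Gria2. The Camk2a to Camk2b ratio, which bears on the makeup of CaMKII, ran from 1.42 through 2.87 to 4.38 in HET and from 2.43 through 4.24 to 5.65 in WT. Its mean log2 difference was -0.64, with a two-sided exact permutation p of 0.0233 over 3432 splits and an adjusted p of 0.0699 over the 3 pairs. The Grin2a to Grin2b ratio, which climbs as cortical synapses mature, ran from 0.369 through 0.480 to 0.664 in HET and from 0.451 through 0.558 to 0.674 in WT. Its difference was -0.26 (exact permutation p = 0.0594, adjusted p 0.0723). The Gria2 to Gria1 ratio ran from 0.272 through 0.445 to 0.581 in HET and from 0.412 through 0.556 to 0.739 in WT, with a difference of -0.36 (exact permutation p = 0.0723, adjusted p 0.0723). For each ratio 2 HET libraries lay below the lowest WT library, HET 4 was the lowest HET library and WT 4 the lowest WT library. None of the 3 passed at an adjusted p under 0.05. Without WT 4 all 3 did by the same exact permutation test, with differences of -0.78 (adjusted p 0.0105), -0.32 (adjusted p 0.0315) and -0.43 (adjusted p 0.0315) in the order given. Without HET 4 and HET 1 the differences of Camk2a to Camk2b, Grin2a to Grin2b and Gria2 to Gria1 were -0.41, -0.19 and -0.19 (adjusted p 0.261 each, exact permutation). In polyA-labelled libraries they were -0.34, -0.16 and -0.22 (adjusted p 0.367 each, exact permutation).

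**Figure D5:**
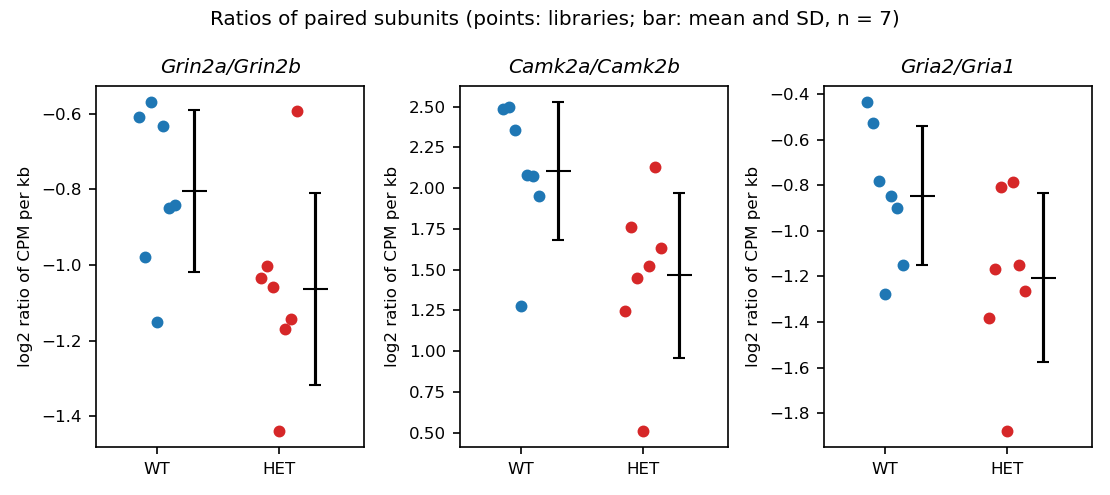
Log2 ratio of CPM per kb for Grin2a to Grin2b, Camk2a to Camk2b and Gria2 to Gria1; points are libraries, and the bars give the mean and SD over 7 libraries per genotype. HET means lie lower by 0.26, 0.64 and 0.36, and the genotypes overlap in every pair.

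A further 72 genes of the excitatory postsynapse, such as kainate receptors, other auxiliary subunits, phosphatases and adhesion proteins, gave the wider setting. In edgeR 0 of 72 were called (0.97% of all genes). An unadjusted p under 0.05 was found for 21 (22.2% of all genes), 15 of them lower in HET (10.4%) and 6 higher (11.8%). A log2 fold change below 0 was found for 52 (46.71% of all genes). DESeq2 called 6 of the 72 (8.33% of all genes) and limma-voom 12 (10.4%). Their median was -0.13, between that of the members (-0.32) and that of all genes (0.02). The slope on excitatory markers was upward for 30 (10.9% of all genes) and downward for 4 (9.18%). The genes with the smallest p, chosen after their values were seen, went both ways. Camk2d, a CaMKII gene also common outside the brain, averaged 176.4 ± 39.5 CPM (HET) against 114.8 ± 21.4 CPM (WT) (log2 fold change 0.62, adjusted p 0.0539 in edgeR), opposite in sign to Camk2a. Cnih2, which encodes the AMPA receptor partner cornichon, stood at 196.0 ± 27.4 and 249.4 ± 18.7 CPM (log2 fold change -0.35, adjusted p 0.0587). Homer1, the best known Homer gene, stood at 138.7 ± 74.2 and 310.5 ± 121 CPM (log2 fold change -1.16, adjusted p 0.101).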

How the data were processed

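Frontal cortex RNA of 7 HET and 7 WT mice was sequenced, and the authors deposited 1 table of raw counts per gene for each library. Counting used featureCounts 2.0.1 on the exons of each gene ID in Ensembl release 102, with strand setting 0, per the file headers, so reads of overlapping antisense genes cannot be told apart. Per the submitters' processing notes the build was GRCm38.p6, and STAR and Trimmomatic (no version given) were used. The ATAC-seq lists give peak positions on mm10 (GRCm38). The deposited names point to merged libraries, and the sources used here do not say which, nor with which settings peaks were called. Hi-C and the ATAC-seq of samples labelled PAT or Control were not analysed here.

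IDs were matched to symbols for 55141 of 55487 genes. After filterByExpr and TMM scaling, genotype was the single term of a robust quasi-likelihood fit in edgeR 4.0.16 (R 4.3.3, two-sided test), with Benjamini-Hochberg adjustment over 18050 genes and a threshold of 0.05. The code was tested on simulated data. CPM per kb used the exon length of the count tables. Ratios of pairs were compared by exact permutation. No 2 libraries were alike within sampling noise (chi-square per degree of freedom at least 7.47 over 91 pairs). Per the labels' protocols there were 7 mice per genotype, and p-values then measure differences between animals if each library is a mouse of its own. Alternatives were DESeq2 1.42.0 and its size factors, limma-voom (limma 3.58.1), a block for the replicate number, no filter on low counts, a minimum of 1 CPM in at least 7 libraries, excitatory or 3 tissue marker means as covariates, polyA-labelled libraries alone, and each library or the 2 lowest in excitatory markers left out. Leaving out 3 such libraries and searching motifs without exon bases were chosen after seeing the data.

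The members and lists were chosen with earlier results of these data known. Values by library were given for the genes of the 3 ratios and, in each role group, for the member with the smallest p and the one with the highest WT level per kb. Marker lists covered 12 cell types and tissues.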

Additional observations from a re-analysis of the deposited data

Results flagged for a closer look

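In WT replicate 4 the values of 3 members stood far below the other 6 WT libraries: Grin2a at 76.73 CPM, Slc17a7 at 461.8 CPM and Nrgn at 492.1 CPM. The gap to the next WT library was 0.59, 0.638 and 0.615 of the whole WT range. Of 72 groups of values examined, chance alone flags about 1 in 20, and all 3 values come from 1 library, so they are not independent of each other. WT 4 was also the WT library lowest in excitatory neuron markers and highest in striatal markers (mean log2 CPM 7.43). The part of either in the 3 values was not tested.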

How the results depend on the processing

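With 28 of 33 members the direction of the genotype difference was the same in all 25 alternative fits. Of 825 member values under those fits, 21 had the opposite sign. On the log2 scale these were Gria2 at 0.056 with the excitatory covariate and 0.041 with 3 tissue covariates, Slc17a7 at 0.031 and 0.029 with these, and Camk2b at 0.015 with the excitatory covariate and 0.053 in polyA-labelled libraries. Grm5 stood at 0.13 and 0.12 with these covariates, 0.11 in polyA-labelled libraries, 0.0033 without HET 1, 0.049 without HET 4, and 0.12 and 0.15 without the 2 and 3 libraries lowest in excitatory markers. Nlgn1 stood at 0.19, 0.18 and 0.17 in the first 3 of these fits, 0.046 without HET 4, 0.017 without WT 2, 0.0083 without WT 3, and 0.086 and 0.062 without the 2 and 3 lowest libraries. With a library left out Grm5 ran from -0.10 to 0.049 and Nlgn1 from -0.13 to 0.046. None of these values was called, and the cause was not tested.

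Members called went from 0 to 5 in DESeq2, 9 in limma-voom and 6 without the 3 lowest libraries, and ranged from 0 to 7 with a library left out (1 without HET 6, 7 without WT 4). Called among the 72 other genes were 6, 12 and 2 in those fits, and 0 to 12 with a library left out (1 without HET 5, 4 without HET 6, 12 without WT 4). The share of all genes called in either direction is not given here for the fits with a library left out. The members' median was -0.061 with the excitatory covariate and -0.072 with 3 covariates, and that of the 72 genes 0.012 and 0.011. With a library left out the medians ran from -0.38 to -0.25 and from -0.19 to -0.097. Of the 8 gene starts with a HET peak alone, 5 were counted with the widest HET peaks in equal number.

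The replicate numbers do not pair the libraries, since same-numbered deviations correlated between -0.28 and 0.33 and 1 of 7 libraries matched its own number best. A replicate block left 0 members called, and the share over all genes in that fit is not given here. For the 3 ratio differences of -0.26, -0.64 and -0.36, signs of the 7 same-numbered differences were flipped in place of the splits above. That gave an adjusted p of 0.0469 each by exact sign flips. It rests on a pairing that the data do not show, so no conclusion is drawn from it. With a library left out the ratio differences ran from -0.34 to -0.20 for Grin2a to Grin2b, -0.78 to -0.48 for Camk2a to Camk2b and -0.43 to -0.25 for Gria2 to Gria1. That of Camk2a to Camk2b was -0.54 (adjusted p 0.0455, exact permutation) without the 3 lowest libraries.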

Other observations

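Slc17a6, the vesicular glutamate transporter gene of thalamic and other subcortical neurons, had a difference opposite in sign to that of Slc17a7. It ran from 51.76 through a median of 206.1 to 453.2 CPM in HET and from 19.07 through 51.28 to 147.0 CPM in WT (log2 fold change 1.51, 95% interval 0.36 to 2.66, adjusted p 0.128 in edgeR), and its highest value was in HET 4. It stands in the thalamic marker list, of which 4 of 8 genes had an unadjusted p under 0.05 (22.2% of all genes). In gene bodies the 2 lists held, as examples, 21 HET and 10 WT peaks at Dlg2, which spans 1972576 bases, and 10 and 8 at Gria1. Grin2a held 15 and 4, Shank1 3 and 3, and Homer3 0 and 1. The HET list was longer, at 30862 against 19272 peaks, and no share over all genes is given here. These counts compare the lists and not the genotypes.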
